A study of Homo sapiens with 2 samples.

Results

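RNA polymerase II, the Mediator complex and the general transcription factors are the machinery that starts the transcription of protein-coding genes. The genes described here are those whose symbol names a subunit of RNA polymerase II (POLR2A to POLR2M), a numbered Mediator subunit (MED), a TBP-associated factor (TAF), a subunit of the general factors TFIIA to TFIIH (GTF2), or TBP itself. They are 76 of the 11619 genes listed. Of these genes, 13 carry a POLR2 symbol, 28 a MED symbol, 22 a TAF symbol and 12 a GTF2 symbol, and TBP is the remaining one. MED7, MED12L, TAF1L and TAF7L, which the same rule would take, were not analysed here. GTF2B, the gene of the single-chain factor TFIIB, has no subunit number in its symbol and so is not among the 76.

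NB4 is a human cell line derived from acute promyelocytic leukemia that carries the PML/RARα fusion. Cells were infected with a lentivirus for an shRNA against the long non-coding RNA CRNDE (sh-CRNDE) or for a non-targeting shRNA (sh-Control), and total RNA was taken on day 3. The viral vector also carries ZsGreen1, a green fluorescent marker. Each group has 1 library, both from the same cell line, and the sources used here do not say which CRNDE shRNA was sequenced. No difference below therefore has a replicate check, no p-value is given, and an effect of the shRNA cannot be told apart from what sets these 2 libraries apart.

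Values are FPKM, fragment counts scaled by transcript length and by library size. The change of a gene is log2(FPKM + 1) in sh-CRNDE less that in sh-Control, and a gene is said to have risen or fallen where this change is past 1.5-fold. The depth of the libraries is unknown, because FPKM keeps no read counts. Summed over all genes the levels were 141217 FPKM in the sh-Control library and 170373 FPKM under sh-CRNDE, with medians of 3.95 and 3.89 FPKM. The highest level of any gene was 3057 FPKM in sh-Control and 27614 FPKM under sh-CRNDE, so the sums depend on single genes. The highest change of any gene was 14.8. CRNDE itself was at 5.92 FPKM in the sh-Control library and 1.85 FPKM under sh-CRNDE, a change of -1.28. Of 9 promyelocytic marker genes, 8 were listed, at 3.87 to 1135 FPKM in sh-Control and 3.28 to 738 FPKM in sh-CRNDE. Their summed level was 1476 FPKM in the sh-Control library and 873 FPKM under sh-CRNDE, and ELANE was not analysed here. Most of this sum is MPO, at 1135 and 738 FPKM. MPO, AZU1, PRTN3 and CTSG fell, and CD33, ANPEP, PML and RARA were not past 1.5-fold. The part of these marker differences in the results below was not tested. Of the markers of other lineages, CD79A was at 1.02 and 0.256 FPKM and EPCAM at 4.82 and 4.49 FPKM, and CD3E and COL1A1 were not analysed here.

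At a promoter, TFIID, made of TBP and the TAFs, recognises the core DNA elements. TFIIA, TFIIB, TFIIE, TFIIF and TFIIH then assemble with RNA polymerase II, and TFIIH opens the DNA and phosphorylates the tail of the largest polymerase subunit. Mediator links activators bound at enhancers to this assembly. The complexes are used in all cell types, and their subunits work together in fixed assemblies.

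Of the 76 genes, 2 rose, 9 fell and 65 were not past 1.5-fold. TAF11 and POLR2M rose, and TAF7, POLR2D, MED29, MED20, MED28, TAF13, MED22, TAF1C and MED4 fell. The shares were 2.63% higher and 11.8% lower, where over all listed genes 8.38% were higher and 8.83% lower. In either direction, 14.5% of the 76 genes and 17.2% of all genes were past the threshold. Among the 54 members with a mean of 5 FPKM or more, 2 rose (3.70%) and 6 fell (11.1%), beside 8.42% and 8.71% of the 5097 genes at that level, or 17.1% in either direction. The median change of the 76 genes was -0.02, with the middle of the distribution from -0.36 to 0.16, and that of all genes was -0.01, from -0.26 to 0.23. The change was above 0 in 36 genes and below 0 in 40. The count that fell was 14 with a pseudocount of 0.01, a setting at which 15.7% of all genes fell, and 4 at a threshold of 2-fold, which 3.23% of all genes passed downwards.

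The promoters of the 2 genes that rose and of the 3 with the lowest change are printed here, since these 5 genes carry the largest differences. Each window holds 250 bases before and 50 from the transcription start (RefSeq, GRCh38.p14), written 5′ to 3′ on the strand of the gene. Capitals mark exact matches, on either strand, to any of 8 motifs: TATAAA, the GC box GGGCGG, the ETS core CCGGAAG, the YY1 motif ATGGCGGC, the NRF1 palindrome, CCAAT, the CRE TGACGTCA and the E-box CACGTG. TAF11 has 2 such windows, whose starts lie on the same stretch of DNA, and the first is shown.
TAF11 promoter window (chr6:34887993-34888292, minus strand): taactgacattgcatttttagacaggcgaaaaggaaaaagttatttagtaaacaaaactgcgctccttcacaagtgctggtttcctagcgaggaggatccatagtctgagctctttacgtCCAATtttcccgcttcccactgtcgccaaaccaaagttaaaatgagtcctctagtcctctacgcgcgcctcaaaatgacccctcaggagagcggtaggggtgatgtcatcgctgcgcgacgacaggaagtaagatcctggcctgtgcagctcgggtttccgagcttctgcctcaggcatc
POLR2M promoter window (chr15:57706464-57706763, plus strand): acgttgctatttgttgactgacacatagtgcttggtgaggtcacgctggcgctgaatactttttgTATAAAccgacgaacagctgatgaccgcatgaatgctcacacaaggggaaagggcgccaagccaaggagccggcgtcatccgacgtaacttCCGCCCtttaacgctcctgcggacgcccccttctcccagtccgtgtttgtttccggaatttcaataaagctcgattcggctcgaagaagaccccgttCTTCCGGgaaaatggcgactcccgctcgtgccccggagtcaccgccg
POLR2D promoter window (chr2:127858106-127858405, minus strand): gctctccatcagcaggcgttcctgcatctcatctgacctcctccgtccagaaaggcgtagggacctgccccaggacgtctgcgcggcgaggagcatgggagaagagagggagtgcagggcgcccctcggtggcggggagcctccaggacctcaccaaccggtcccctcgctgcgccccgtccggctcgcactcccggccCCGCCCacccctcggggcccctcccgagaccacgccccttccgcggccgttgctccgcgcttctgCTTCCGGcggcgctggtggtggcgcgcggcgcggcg
TAF7 promoter window (chr5:141320735-141321034, minus strand): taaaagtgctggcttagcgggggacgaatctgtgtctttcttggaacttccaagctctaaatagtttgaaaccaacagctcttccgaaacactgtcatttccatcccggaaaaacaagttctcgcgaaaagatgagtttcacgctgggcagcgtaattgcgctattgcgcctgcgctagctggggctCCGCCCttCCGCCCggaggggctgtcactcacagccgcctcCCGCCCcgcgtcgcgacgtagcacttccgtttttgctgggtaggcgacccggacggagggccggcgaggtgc
MED29 promoter window (chr19:39391128-39391427, plus strand): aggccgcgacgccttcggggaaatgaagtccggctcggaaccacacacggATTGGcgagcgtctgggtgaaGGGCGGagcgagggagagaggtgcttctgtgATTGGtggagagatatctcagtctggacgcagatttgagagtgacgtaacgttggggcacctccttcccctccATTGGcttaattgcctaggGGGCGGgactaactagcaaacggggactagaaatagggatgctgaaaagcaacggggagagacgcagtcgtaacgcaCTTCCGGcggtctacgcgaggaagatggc
The window of TAF11 holds 1 match, a CCAAT box. Those of POLR2M, POLR2D and MED29 each hold a match to the ETS core, at 4, 15 and 22 bases after the start, and TAF7 has 3 GC boxes. Their GC content runs from 50% in TAF11 to 73.7% in POLR2D. No motif was in all 5 windows.

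Promoter windows were matched by symbol for 59 of the 76 genes, as 70 windows, some of which overlap. The ETS core was in 40.0% of the 70 windows, in 18.9% of the 11418 windows of listed genes and in 10.3% of all 35116 windows. The YY1 motif was in 15.7%, 6.10% and 2.996% of these windows, the NRF1 motif in 5.71%, 2.10% and 1.24%, the E-box in 12.9%, 9.93% and 7.26%, and the CRE in 4.29%, 2.99% and 1.85%. The GC box was in 61.4%, 67.4% and 45.0%, CCAAT in 31.4%, 35.2% and 34.6%, and TATAAA in 4.29%, 5.67% and 11.5%. The E-box is its own reverse complement, as are the CRE and the NRF1 motif, and none of the 8 motifs holds another. A match is a description of the letters and not a binding site. The YY1 motif, the NRF1 motif, the CRE and the E-box had no match in the matched windows of genes that were past 1.5-fold. Those windows are few and these motifs are uncommon, at 4.29% to 15.7% of the 70 windows, so this does not set those genes apart.

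RNA polymerase II is built around its catalytic pair, POLR2A and POLR2B, which were the most abundant of the 76 genes in both libraries. POLR2B was at 44.2 FPKM in the sh-Control library and 47.4 FPKM under sh-CRNDE, and POLR2A at 39.8 and 30.2 FPKM, changes of 0.10 and -0.39. The least abundant subunit was POLR2F in both libraries, at 3.49 and 2.47 FPKM. The most abundant subunit was thus 12.7 times as high as the least abundant in sh-Control and 19.2 times in sh-CRNDE, although the enzyme holds its core subunits in a fixed ratio.

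POLR2D and POLR2M were the only polymerase genes past 1.5-fold. POLR2D (chr2:127843553-127858155, GRCh38, minus strand) encodes a subunit of the stalk beside the RNA exit channel. It was at 17.9 FPKM in the sh-Control library and 3.70 FPKM under sh-CRNDE, a change of -2.004, and 0.809% of all genes had a lower change. The other stalk gene, POLR2G, was at 23.5 and 26.1 FPKM, a change of 0.15. The level of POLR2G was thus 1.31 times that of POLR2D in sh-Control and 7.06 times in sh-CRNDE. POLR2D went from rank 7 of the 13 polymerase genes to rank 12.

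POLR2M (chr15:57706695-57782762, plus strand) encodes Gdown1, a polymerase-associated protein that competes with TFIIF. It was at 4.37 FPKM in the sh-Control library and 11.6 FPKM under sh-CRNDE, a change of 1.23. Of all genes, 97.6% lay below it. GCOM1, a longer transcription unit on the same strand, shares 20.3% of the exonic bases of POLR2M in the annotation, and its own level was not analysed here.

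The remaining polymerase subunits stayed under the threshold. Subunits that are shared with RNA polymerases I and III had changes of 0.12 (POLR2H), 0.05 (POLR2K), -0.04 (POLR2L), -0.37 (POLR2F) and -0.57 (POLR2E). POLR2E, at 20.03 and 13.1 FPKM, was the gene closest below the threshold. POLR2I, at 11.05 and 7.24 FPKM, followed with a change of -0.55. POLR2C and POLR2J, which form the pair on which the enzyme is assembled, were at 16.996 and 16.3 FPKM and at 19.2 and 25.3 FPKM, changes of -0.06 and 0.38. The median change was 0.02 for the 8 genes specific to polymerase II and -0.04 for the 5 shared ones.

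**Figure D1:**
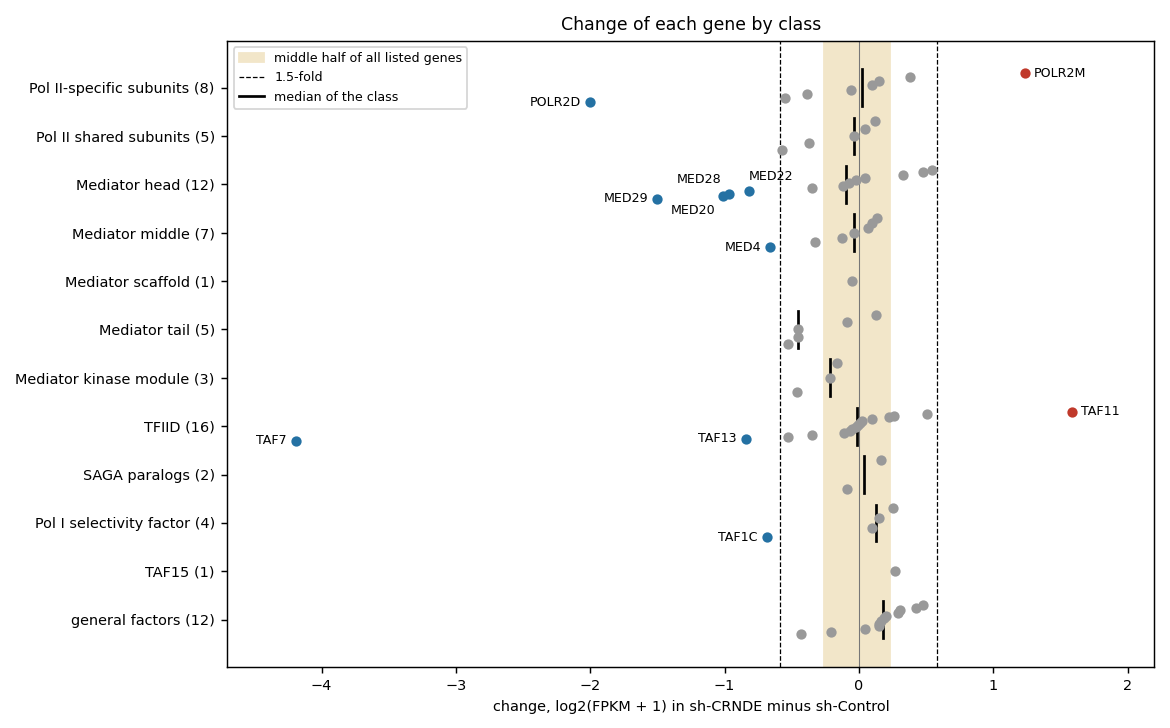
Change of each gene on the x axis, as log2(FPKM + 1) in sh-CRNDE less sh-Control, by class, with the number of genes in brackets, red for genes that rose and blue for genes that fell past 1.5-fold. Of the 11 coloured points, 4 belong to the Mediator head, and 10 of the 12 general factor genes lie to the right of 0.

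Mediator held 5 of the 9 genes that fell. Of its 28 genes, 5 fell (17.9%) and 0 rose, the change was below 0 in 20, and the median change was -0.12. Over all genes, 8.83% fell and 8.38% rose, or 17.2% in either direction, and 5906 of 11619 had a change below 0. Summed over the 28 genes, the level was 195 FPKM in the sh-Control library and 163 FPKM under sh-CRNDE, a ratio of 0.834. The same ratio was 0.935 for the 13 polymerase genes, 0.932 for the 16 TFIID genes (1.09 without TAF7, which is listed at 0 in sh-CRNDE) and 1.04 for the 12 general factor genes. These sums depend on single genes. The TFIID sum without TAF7 still holds TAF11, at 8.40 FPKM in sh-Control and 27.3 FPKM under sh-CRNDE. The Mediator sum holds MED4, at 23.2 and 14.3 FPKM, and MED28, at 12.4 and 5.82 FPKM.

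The head module contacts the polymerase, and 4 of its 12 genes fell (33.3%), where 8.83% of all genes fell. MED29 (chr19:39391303-39400641, plus strand) was at 3.32 FPKM in the sh-Control library and 0.526 FPKM under sh-CRNDE, a change of -1.501. Its FPKM in sh-Control was 6.31 times that in sh-CRNDE, and 1.45% of all genes had a lower change. MED20 was at 2.93 and 0.947 FPKM (-1.01), MED28 at 12.4 and 5.82 FPKM (-0.97) and MED22 at 2.93 and 1.23 FPKM (-0.82). MED20, MED22 and MED29 were below 5 FPKM in both libraries, and MED28 was not.

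Other head genes were higher in sh-CRNDE without passing the threshold. MED19 was at 3.50 and 5.56 FPKM (0.54), MED6 at 4.11 and 6.09 FPKM (0.47) and MED8 at 6.80 and 8.79 FPKM (0.33). MED18, the partner of MED20 in the movable part of the head, was at 0.943 and 1.001 FPKM (0.04). The level of MED20 was 3.11 times that of MED18 in sh-Control and 0.947 times in sh-CRNDE. MED17, the architectural subunit of the head, was at 5.33 and 5.00 FPKM (-0.08). The borders of the head and tail modules differ between accounts, and MED27 to MED30 are placed in the head here. MED28 and MED29, which fell, are among these, so the counts of the head and of the tail depend on this placement.

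In the middle module MED4 fell, from 23.2 to 14.3 FPKM, a change of -0.66. It was the most abundant Mediator gene in both libraries. MED1, the subunit through which nuclear receptors bind, was at 8.88 and 9.37 FPKM (0.07), and MED10 at 13.2 and 12.9 FPKM (-0.04). MED21 had the next lowest change of the module, -0.33, from 6.91 to 5.31 FPKM. MED14, the scaffold that joins head, middle and tail, was at 7.57 and 7.29 FPKM (-0.05).

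In the tail, where many activators bind, 0 of 5 genes were past 1.5-fold, beside 17.2% of all genes. The median change of the tail was -0.45. MED16 was at 6.73 and 4.36 FPKM (-0.53), MED15 at 3.89 and 2.57 FPKM (-0.45) and MED25 at 6.22 and 4.27 FPKM (-0.45). With no pseudocount, the ratio of sh-Control to sh-CRNDE was 1.54 for MED16, 1.51 for MED15 and 1.46 for MED25. MED24 (-0.09) and MED23 (0.13) had smaller changes. The transcripts of MED15, MED16 and MED25 have 61.0% to 65.4% GC, and across all genes the change was lower at high GC content. After correction for this, by taking off the median change of genes with a like GC content, the tail median was -0.08. MED12, MED13 and MED13L belong to the kinase module, which binds Mediator reversibly, and were at 12.5 and 8.83 FPKM (-0.46), 9.03 and 7.93 FPKM (-0.17) and 12.5 and 10.6 FPKM (-0.22). The median of these 3 genes was -0.22, and -0.34 after the same correction.

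TFIID is built on pairs of TAFs that fold together through histone-like domains, and TAF11 and TAF13 form such a pair. TAF11 (chr6:34877462-34889192, minus strand) was at 8.40 FPKM in the sh-Control library and 27.3 FPKM under sh-CRNDE, a change of 1.59, and its FPKM rose 3.25-fold. TAF13 (chr1:109062496-109076012, minus strand) was at 13.2 and 6.95 FPKM, a change of -0.84. TAF11 was thus 0.635 times as abundant as its partner in sh-Control and 3.93 times in sh-CRNDE. Of all genes, 98.6% had a change below that of TAF11 and 4.44% one below that of TAF13. Among the 76 genes, TAF11 went from rank 32 to rank 4.

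TAF7, a TFIID subunit that binds TAF1, was at 17.3 FPKM in the sh-Control library but listed at 0 under sh-CRNDE, so no fold change is given. It was the only one of the 76 genes at 0 in either library, and the only one whose canonical transcript has a single exon. Over all genes, 56 are listed at 0 in one library and at 5 FPKM or more in the other. Of the 55 of these with an annotation, 52 have a single exon. The share of single-exon genes among all listed genes is not given here, and the cause of the values of 0 was not tested. Without genes listed at 0, 8 of the remaining 75 genes fell and 2 rose, and over all genes left 7.85% fell and 7.01% rose.

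The other TFIID genes were not past the threshold. TBP, which binds the TATA box and bends the DNA, was at 9.08 and 8.65 FPKM (-0.06). TAF1, the largest subunit, was at 6.59 and 6.33 FPKM (-0.05). Of the 16 TFIID genes, 7 had a change between -0.10 and 0.10, as had 22 of the 76 genes and 2543 of all 11619. The median of the TFIID genes was -0.01, 1 gene rose and 2 fell. These shares were 6.25% and 12.5%, beside 8.38% and 8.83% of all genes. TAF6, at 11.5 and 7.62 FPKM, had a change of -0.53, and its histone-fold partner TAF9, at 3.09 and 2.79 FPKM, one of -0.11. TAF4 (0.09) and its partner TAF12, at 5.65 and 5.62 FPKM, differed less. TAF10, which pairs with TAF3 or TAF8, was at 3.46 and 4.22 FPKM (0.23), and TAF3 and TAF8 had changes of 0.0072 and -0.02. TAF5, the scaffold of TFIID, was at 16.1 and 12.4 FPKM (-0.35), and TAF2, which contacts the initiator element, at 4.32 and 5.38 FPKM (0.26).

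Several TAFs have a paralog that can take their place in TFIID or in the coactivator complex SAGA. TAF9B, the paralog of TAF9, was at 6.24 FPKM in the sh-Control library and 9.30 FPKM under sh-CRNDE (0.51). It made up 66.9% of the summed FPKM of the pair in sh-Control and 76.9% in sh-CRNDE. TAF6L, the SAGA form of TAF6, was at 5.77 and 5.37 FPKM (-0.09), and its share of the pair was 33.5% and 41.3%. TAF5L, the SAGA form of TAF5, was at 4.72 and 5.43 FPKM (0.17), with shares of 22.6% and 30.4%. TAF4B made up 60.7% and 59.1% of its pair with TAF4, and MED13L 58.1% and 57.2% of its pair with MED13. In none of these 5 pairs did the more abundant gene change place with the other.

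TAF1A, TAF1B, TAF1C and TAF1D have TAF symbols but belong to the selectivity factor that loads RNA polymerase I on ribosomal RNA genes. TAF1C fell, from 6.48 to 3.65 FPKM, a change of -0.68. Corrected for GC content in the same way, this was -0.40 and no longer past 1.5-fold. The others were at 3.80 and 4.13 FPKM (TAF1A, 0.10), 5.29 and 5.9996 FPKM (TAF1B, 0.15) and 16.1 and 19.3 FPKM (TAF1D, 0.25). TAF15, an RNA-binding protein of the FET family, was at 16.5 and 20.1 FPKM (0.27).

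None of the 12 general factor genes passed 1.5-fold, and 10 had a change above 0. Their median change was 0.18. Over all genes, 17.2% passed 1.5-fold and 5713 of 11619 had a change above 0. GTF2B, counted apart, was at 9.92 and 10.4 FPKM (0.06). GTF2A1, the gene of the large TFIIA subunit, was at 5.09 and 7.498 FPKM (0.48), and GTF2A2, that of the small subunit, at 15.9 and 17.8 FPKM (0.15). Both TFIIE genes were higher, GTF2E1 at 3.28 and 3.92 FPKM (0.20) and GTF2E2 at 9.84 and 12.4 FPKM (0.31). The TFIIF pair, which escorts the polymerase to the promoter, had changes of opposite sign. GTF2F1, the most abundant general factor gene, was at 30.7 FPKM in the sh-Control library and 22.5 FPKM under sh-CRNDE (-0.43), and GTF2F2 at 11.2 and 15.4 FPKM (0.42). GTF2F1 was 2.73 times as high as GTF2F2 in sh-Control and 1.46 times in sh-CRNDE.

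The 6 TFIIH genes had a median change of 0.16, from -0.21 for GTF2H3 to 0.29 for GTF2H4. GTF2H1 was at 7.83 and 8.10 FPKM (0.04), and GTF2H5, the smallest subunit and the least abundant general factor gene, at 1.93 and 2.25 FPKM (0.15). GTF2H2, at 4.97 and 5.82 FPKM, and GTF2H2B, at 7.21 and 8.20 FPKM, had changes of 0.19 and 0.16. GTF2H2B is annotated as a transcribed pseudogene, and reads of the copies are hard to tell apart. Of the stretches of 50 bases in the canonical transcript of GTF2H2, 71.0% also occur in that of GTF2H2B and 82.4% in that of GTF2H2C, so the split between them is uncertain. The median GC content of the general factor transcripts was 39.3%, and their median change after the GC correction was 0.0076.

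The 76 genes lie on 22 chromosomes, with 8 on chromosome 17, and 75 are annotated as protein-coding. Their canonical transcripts have 1 to 45 exons, with MED12 at the upper end, and 35.4% to 65.4% GC. Over the 76 genes, Spearman's correlation of the change with GC content was -0.35 and Pearson's was -0.17, and over 11508 genes they were -0.39 and -0.24. These are descriptions across genes of the same 2 libraries and not independent replicates. Over all genes the median change was 0.20 in the bin around 35.7% GC and -0.35 in the bin around 65.8% GC. Of the 38 members below 45.8% GC, 23 had a change above 0, and both genes that rose and 5 of the 9 that fell were among them. Of the 38 at or above it, 13 had a change above 0 and 4 fell. Over all genes, 3237 of 4769 below this GC content and 2421 of 6739 at or above it had a change above 0. Past 1.5-fold, 526 of the 4769 rose and 282 fell, and 433 of the 6739 rose and 730 fell. After the GC correction, 3 of the 76 genes rose and 8 fell, beside 7.73% and 6.97% of all genes. TAF11 (1.51), POLR2M (1.07), POLR2D (-2.09) and MED29 (-1.42) were still past 1.5-fold.

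**Figure D2:**
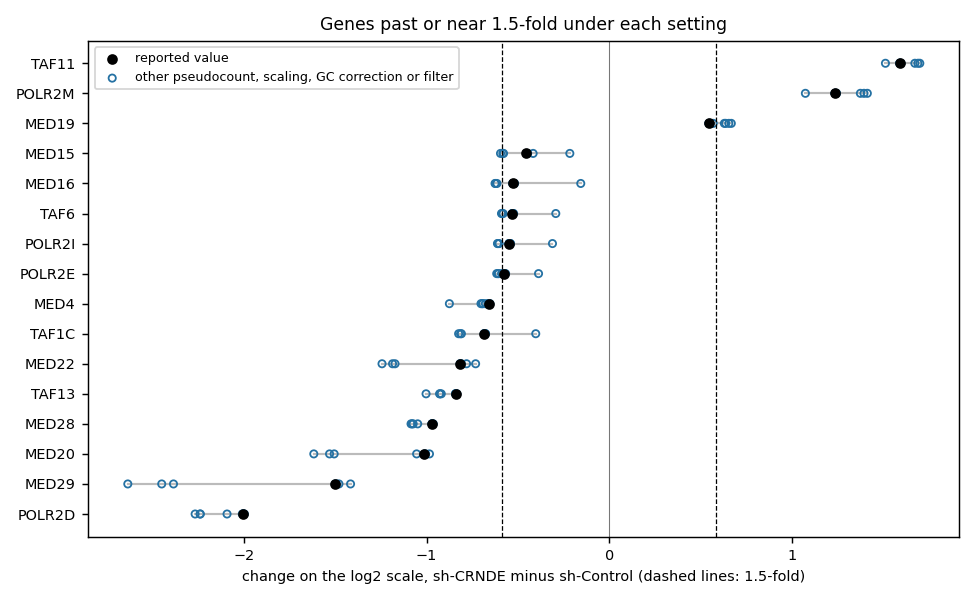
Change on the log2 scale of the genes past or near 1.5-fold (dashed lines), with the reported value in black and the value under each other pseudocount, scaling, GC correction or filter as an open circle. TAF7, listed at 0 in one library, is left out, and of the genes shown as past the threshold, TAF1C alone has a circle inside the dashed lines.

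Genes that work with this machinery but that the symbols above leave out were taken from lists by function. Of 82 such genes, 7 rose (8.54%) and 4 fell (4.88%), with a median change of 0.06. Over all genes, 8.38% rose and 8.83% fell. In the Mediator kinase module, CCNC, the cyclin that activates CDK8, rose from 7.06 to 19.2 FPKM, a change of 1.33. CDK8 itself was at 16.36 and 16.41 FPKM (0.0043), and its paralog CDK19 at 3.36 and 4.83 FPKM (0.42). The level of CDK8 was 2.32 times that of CCNC in sh-Control and 0.853 times in sh-CRNDE. The other TFIIH genes were not past the threshold. ERCC2 and ERCC3, its helicases, were at 5.17 and 4.22 FPKM (-0.24) and at 7.23 and 6.65 FPKM (-0.11). CDK7, CCNH and MNAT1, which form its kinase, had changes of 0.20, 0.16 and 0.38.

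Of 33 genes of pausing and elongation, 4 rose (12.1%) and 2 fell (6.06%), and the median change was 0.08. In either direction this was 18.2%, beside 17.2% of all genes, of which 8.38% rose and 8.83% fell. CDK9, the kinase of P-TEFb that releases paused polymerase, fell from 15.2 to 7.35 FPKM, a change of -0.96. Its cyclins moved apart, CCNT1 at 3.47 and 2.04 FPKM (-0.56) and CCNT2, which rose, at 1.47 and 3.16 FPKM (0.75). LARP7, which holds P-TEFb in its inactive particle, rose from 9.62 to 17.6 FPKM (0.81). AFF4, the scaffold of the super elongation complex, rose from 4.02 to 9.29 FPKM (1.04), and EAF1, a partner of the ELL elongation factors, from 2.03 to 9.57 FPKM (1.80). NELFB, a subunit of the pausing factor NELF, fell from 35.4 to 21.1 FPKM (-0.72).

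Of the 14 genes of polymerase assembly and tail dephosphorylation, CTDSPL2 (10.8 and 4.56 FPKM, -1.09) and CTDSP2 (14.1 and 7.37 FPKM, -0.86) fell and 0 rose. The share that fell was 14.3%, beside 8.83% of all genes. Among 4 regulators of TBP, TBPL1, a TBP-like factor, rose from 1.70 to 3.34 FPKM (0.68). The copies POLR2J2, POLR2J3 and POLR2J4, listed under 4 identifiers, had changes from -0.27 to 0.15. Of 19 subunits of RNA polymerases I and III, 14 had a change above 0, the median was 0.11, and POLR3F, a subunit of polymerase III, rose from 2.82 to 5.82 FPKM (0.84). Over all genes, 5713 of 11619 had a change above 0 and 8.38% rose. HEXIM1, CTDSPL and TCEA2 were not analysed here.

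Of 13 pairs of direct partners within a complex, chosen after their values were seen, those furthest apart were TAF11 and TAF13, whose changes differed by 2.43 on the log2 scale (TAF11 less TAF13), and POLR2D and POLR2G, at -2.15 (POLR2D less POLR2G). This difference was -1.32 for CDK8 less CCNC, 1.05 for MED18 less MED20 and -0.85 for GTF2F1 less GTF2F2, and the pairs closest together were TAF4 with TAF12 and GTF2E1 with GTF2E2.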

How the data were processed

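Total RNA of NB4 cells was sequenced from 1 library of each group, sh-CRNDE and sh-Control, and the groups were taken from the sample titles. The authors deposited FPKM values per gene. The submitters' processing notes name fastp 0.20.0, HISAT2 2.0.4, StringTie 1.2.3 and GRCh38, and the methods name the TruSeq RNA kit. The higher value of every listed gene exceeds 0.5 FPKM. Depth is unknown and limits precision by an unknown amount.

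The libraries were joined by Ensembl identifier, and the change was computed with a pseudocount of 1, which understates changes of low genes. The threshold of 1.5-fold (0.585 on the log2 scale) follows the study. All genes were kept and no test was run. Exons, coordinates and GC content are those of GENCODE release 44 (GRCh38, 11508 of 11619 identifiers matched, all 76 members). Antisense and overlapping genes cannot be told apart, since strand use in counting is not given in the sources used here. GC content was corrected by subtracting the median change, taken over genes at 1 FPKM or more in both, in 20 bins. Alternatives were pseudocounts of 0.1 and 0.01, centring, quantile normalization, rescaling to 1000000, filters and a threshold of 2-fold. Scripts were tested on simulated data.

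The genes named are those past or near 1.5-fold, those listed at 0, the extremes of each class, key subunits, paralogs, and other genes of transcription past 1.5-fold. Members, classes, lists, motifs and marker genes were chosen with earlier results of these data known, and the pairs of partners after their values were seen. Some of the marker genes are not reported here. Python 3.11.15, numpy 2.4.6, pandas 2.3.3 and matplotlib 3.10.9 were used.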

Additional observations from a re-analysis of the deposited data

How the results depend on the processing

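No paired analysis was possible because each group has 1 library, and for the same reason no library could be left out. Of the 76 genes, 69 kept their side of 1.5-fold under every pseudocount, scaling and GC correction. A filter leaves the value of a kept gene as it was, so it cannot move a gene across the threshold. Among genes at 1 FPKM or more in both libraries, 6 of 72 members fell and 2 rose. Of all genes kept by that filter, 7.45% fell and 6.67% rose. The exceptions were TAF1C (-0.40 after GC correction) and POLR2E, POLR2I, MED15, MED16, TAF6 and MED19, which passed 1.5-fold under some. No change past 1.5-fold turned its sign. The count of members that fell was 9, and 14 with a pseudocount of 0.01 (15.7% of all genes fell there, against 8.83%) and 4 at a threshold of 2-fold (3.23% of all genes). No scaling moved the median of all genes by over 0.1 on the log2 scale.

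Medians are named here where they moved by more than 0.1. GC correction moved those of the shared polymerase subunits to -0.17, the Mediator tail to -0.082, the kinase module to -0.34, the SAGA paralogs to 0.22, the polymerase I factor to -0.038 and the general factors to 0.0076. Over genes whose mean is 5 FPKM or more, the median of the Mediator middle was -0.18. Of the other genes of transcription, 4 rose under that filter and 3 at 2-fold, and 7 fell with a pseudocount of 0.1, of 0.01 or after rescaling and 1 at 2-fold. Over all genes, 14.8% fell with a pseudocount of 0.1, 15.7% with one of 0.01, 14.8% after rescaling and 3.23% at 2-fold. Under the filter, 8.42% of all genes rose. The share of all genes that rose at 2-fold is not given here, nor is the number of these other genes that the filter kept. The counts that rose under these 2 settings therefore cannot be set against all genes. Beyond what a filter leaves out by its construction, the causes were not tested.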

Other observations

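Exons of 45 of the 76 genes overlap an exon of another annotated gene, and for 20 of them such a gene is itself listed. AK6, which shares 6.71% of the exonic bases of TAF9 on the same strand, was at 14.2 FPKM in the sh-Control library and 24.1 FPKM under sh-CRNDE (a change of 0.73), where TAF9 had a change of -0.11. ILK covers 40.8% of the exonic bases of TAF10 on the opposite strand and was at 17.1 and 16.1 FPKM (-0.08). TXNDC17 covers 58.4% of those of MED31, also on the opposite strand, and was at 5.82 and 7.09 FPKM (0.25), beside a change of 0.13 for MED31. TBCB, opposite POLR2I, had a change of -0.34, and CD151, opposite POLR2L, one of -0.37. The part of these overlaps in the values of the genes was not tested.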
